A study of Mus musculus with 2 samples.

Results

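The slow and cardiac myosin chains are 6 genes, the heavy chains Myh7, Myh6 and Myh7b and the light chains Myl2, Myl3 and Myl6b, out of 10543 genes listed under a single symbol. They were measured in thigh muscle of B6C3F1 mice, a hybrid laboratory strain, at 26 months of age. One group received the control diet. The other was under calorie restriction (CR), with 40% fewer calories for 25 months on a diet enriched in protein, vitamins and minerals. Both groups share the strain, age and tissue, no genetic change is named for either, and each is represented by 1 mRNA-seq library. The members were chosen by name and selected on values of this same contrast, so the difference between the libraries describes them and supports nothing further. All 6 were matched, each at 1 locus, and all 6 passed the filter of a mean of at least 1 FPKM.

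A muscle myosin molecule has a pair of heavy chains, whose heads bind actin and split ATP, and each head carries an essential and a regulatory light chain. Muscle fibres differ in which isoforms they use. Slow, fatigue-resistant fibres use the heavy chain Myh7 with the light chains Myl2, Myl3 and Myl6b, and fast fibres use Myh1, Myh2 or Myh4 with Mylpf and Myl1. The heart uses Myh6 and Myh7 in its wall and shares Myl2 and Myl3 with slow fibres. Myh7b is an ancient slow-type heavy chain best known from specialised fibres such as those of eye muscles and muscle spindles.

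The heavy chain genes also carry microRNAs in their introns, which are shown because they tie the heavy chains together by sequence. In the mouse build GRCm38.p6, mmu-miR-208a-3p lies in intron 29 of Myh6 (chr14:54949072-54949093, minus strand), mmu-miR-208b-3p in intron 31 of Myh7 (chr14:54975710-54975731, minus strand) and mmu-miR-499-5p in intron 19 of Myh7b (chr2:155622893-155622913, plus strand), with introns counted from the 5′ end of GENCODE's principal transcript. The mature sequences are from RefSeq, and the capitals mark the seed, bases 2 to 8.
mmu-miR-208a-3p: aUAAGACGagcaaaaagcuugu
mmu-miR-208b-3p: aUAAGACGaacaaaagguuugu
mmu-miR-499-5p: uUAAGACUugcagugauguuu
The miR-208 pair has the same seed and, counted from the 5′ end of miR-208b-3p, differs at A10G, G16A and U18C. In miR-499-5p the seed differs from that of miR-208b-3p at G8U only, and bases 2 to 7 are shared by all 3. Of 1679 mature mouse microRNAs in the table, these are the 3 with those bases. The sequencing was of poly(A) RNA, so the microRNAs themselves were not measured.

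The stretches before the start sites of Myh7, Myh6 and Myl3 are shown because each holds the MCAT element, CATTCC on either strand, the site bound by TEAD factors. The printed part runs from base -250 to base -51 before the start site, in GRCm38.p6 from RefSeq. Capitals mark MCAT, read as GGAATG where it lies on the opposite strand, and in Myl3 also the CArG box, the site of serum response factor.
Myh7, chr14:54994677-54994876, minus strand: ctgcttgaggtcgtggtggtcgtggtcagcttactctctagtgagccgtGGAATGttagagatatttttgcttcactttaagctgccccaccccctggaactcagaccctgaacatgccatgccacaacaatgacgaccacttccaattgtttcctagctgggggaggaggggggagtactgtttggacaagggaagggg
Myh6, chr14:54966658-54966857, minus strand: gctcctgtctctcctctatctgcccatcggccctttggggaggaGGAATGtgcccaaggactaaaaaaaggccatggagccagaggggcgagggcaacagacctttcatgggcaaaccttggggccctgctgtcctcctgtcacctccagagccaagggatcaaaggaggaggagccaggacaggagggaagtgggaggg
Myl3, chr9:110763428-110763627, plus strand: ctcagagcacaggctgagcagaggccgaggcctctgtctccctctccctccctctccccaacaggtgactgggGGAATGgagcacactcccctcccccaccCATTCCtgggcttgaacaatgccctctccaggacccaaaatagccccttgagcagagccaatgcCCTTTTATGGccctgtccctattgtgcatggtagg
MCAT begins at base -201 in Myh7, at base -206 in Myh6 and at bases -177 and -149 in Myl3. The search covered 250 bases before the start, both strands, for the 5 members with a RefSeq start within 100 bases of the start of GENCODE's principal transcript. MCAT was found in 3 of these 5, against 12.6% of 32851 mouse start sites. An E-box, CANNTG, was found in 5 of 5, against 66.2% of start sites, and the CArG box in 1 of 5, against 1.47%. TATAAA and the MEF2 site were found in 0 of 5, against 12.4% and 2.92%; no match overlapped one of another motif. For Myh7 the RefSeq table also gives a start 77 bases further on, whose window holds no MCAT. The RefSeq starts of Myl2 lay 7762 and 8227 bases from that of its principal transcript, so Myl2 was left out of the count. These matches describe letters in the windows and are not measurements of binding.

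Levels are the deposited values, labelled FPKM, a unit that scales fragments by transcript length and by the number of mapped fragments. In the CR library Myh7 stood at 81978 FPKM with a transcript of 6135 bases, beside Acta1 at 354522 FPKM. Levels so high cannot all be on the usual FPKM scale, so the absolute scale is not known. Genes of different length can be compared within a library only if they share the same scale. The filter of at least 1 FPKM is in these same units. The control library is given first and the CR library second, and the log2 ratio compares CR with control after adding 1 FPKM to each. Depth is unknown for both libraries, and with 1 per group no difference has a replicate check, a test or an interval. In bulk tissue, fewer cells of a type and less RNA per cell cannot be told apart.

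The CR library had more transcript of all 6 myosin chains, from 3.26-fold for Myl3 to 15.5-fold for Myl2. The slow heavy chain Myh7 (chr14:55589521-55613438 in build mm9, minus strand) stood at 8953 and 81978 FPKM. Its log2 ratio was 3.19, a fold of 9.16, and it moved from rank 51 among 10543 genes in the control library to rank 12 in the CR library. At 81978 FPKM it equalled 23.1% of the skeletal actin Acta1, the most abundant gene, against 2.40% in the control library.

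Myh6, the alpha heavy chain of the heart (chr14:55560758-55585444, minus strand), stood at 1479.9 and 18349 FPKM, a log2 ratio of 3.63 and a fold of 12.4. It ranked 539 in the control and 33 in the CR library. Its locus lies downstream of Myh7 with 4076 bases between them. Myh7b (chr2:155436948-155460043, plus strand) was the lowest of the 6 in both libraries, at 32.1 and 132 FPKM. Its fold was 4.01, its rank was 9615 and 7025, and 8.80% and 33.4% of genes lay below it.

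Among the light chains, Myl2, the regulatory light chain of slow fibres and of the ventricle (chr5:122550896-122556864, plus strand), stood at 644 and 10019 FPKM. Its log2 ratio of 3.96 was the highest of the 6, and its rank was 1665 in the control and 64 in the CR library. Myl3, the essential light chain of the same muscles (chr9:110666164-110672301, plus strand), stood at 891 and 2910.5 FPKM, with a log2 ratio of 1.71, the lowest of the 6. Its rank was 1064 and 277. Myl6b, an essential light chain of slow muscle (chr10:127931051-127935833, minus strand), stood at 204 and 881 FPKM, a log2 ratio of 2.10 and a fold of 4.30, and its rank was 5617 and 1087.

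**Figure D1:**
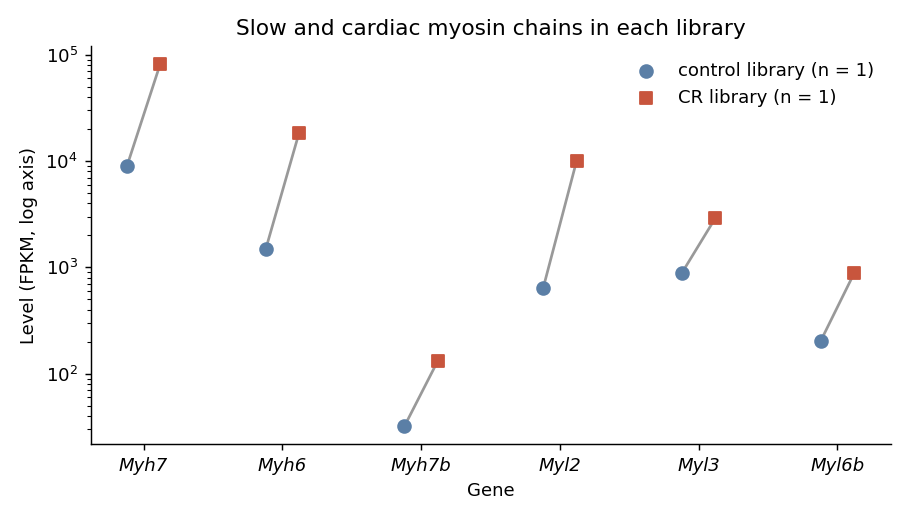
Level of each myosin chain in FPKM on a log axis, with the control library as circles and the CR library as squares (1 library each, joined by a line). All 6 genes are higher in the CR library, and Myh7 is the most abundant in both, at 8953 and 81978 FPKM.

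All 6 genes passed 2-fold upwards under CR and 0 passed it downwards. The background over the 10533 genes kept was 8.01% past 2-fold upwards and 10.7% downwards. The balance was the other way among the 4170 genes whose mean reached 300 FPKM, which hold 5 of the 6 members, with 179 genes (4.29%) upwards and 122 downwards. The members were picked from this contrast, so nothing is read from that difference. Their median log2 ratio was 2.65, beside -0.03 over all genes. Among the 9844 genes above 0 in both libraries, Myl2 had the 16th highest ratio, Myh6 the 28th, Myh7 the 37th, Myl6b the 109th, Myh7b the 121st and Myl3 the 173rd. Together the 6 genes summed to 12204 and 114268 FPKM, which was 0.182% and 1.49% of the FPKM of all named genes.

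**Figure D2:**
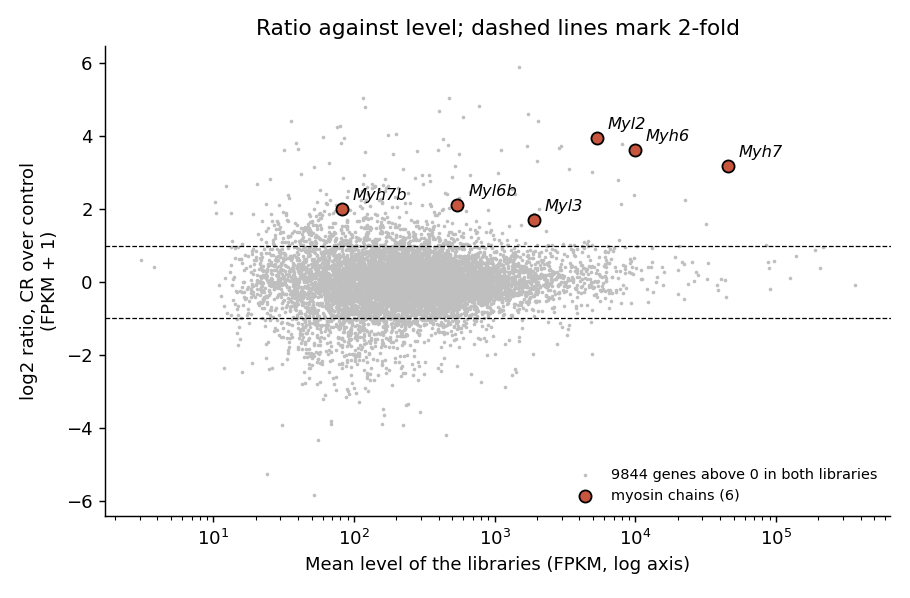
Log2 ratio of CR over control against the mean of the libraries in FPKM (log axis) for 9844 genes above 0 in both, with the 6 myosin chains in red and dashed lines at 2-fold. Myl2, Myh6 and Myh7 lie at log2 ratios of 3.96, 3.63 and 3.19 at means of 5331, 9914 and 45465 FPKM, and Myl3, Myh7b and Myl6b lie at 1.71 to 2.10.

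The 6 genes divided into an upper and a lower range of ratios. Myl2, Myh6 and Myh7 had log2 ratios of 3.19 to 3.96, and Myl6b, Myh7b and Myl3 had ratios of 1.71 to 2.10. The order of levels was Myh7, Myh6, Myl3, Myl2, Myl6b and Myh7b with the control diet. Under CR, Myl2 stood above Myl3 and the order was otherwise the same. Whether neighbours in this order differ beyond replicate spread cannot be said from 1 library each.

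Proportions within a library do not depend on how the libraries are scaled against each other. Myh6 equalled 16.5% of Myh7 in the control and 22.4% in the CR library. Myl2 equalled 7.19% and 12.2% of Myh7, and so had a larger share in the CR library. Myl3 went the other way, at 9.95% and 3.55% of Myh7, as did Myl6b at 2.28% and 1.07% and Myh7b at 0.358% and 0.161%. Set against the slow regulatory chain, the essential chains Myl3 and Myl6b together equalled 170.2% of Myl2 in the control and 37.8% in the CR library. In listed values the essential chains stood above Myl2 in the control library and below it in the CR library. Reading this as numbers of transcripts holds only if these genes share the same scale, which is not known.

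Slow light chains were a small part of the light chain transcripts in both libraries. Mylpf, the fast regulatory light chain, stood at 146936 and 283395 FPKM, and Myl1, the fast essential light chain, at 77622 and 116056 FPKM. Myl2 made up 0.436% of Myl2 and Mylpf together in the control and 3.41% in the CR library. Myl3 and Myl6b made up 1.39% and 3.16% of the total of Myl3, Myl6b and Myl1. The fast light chains were themselves higher in the CR library, with log2 ratios of 0.95 for Mylpf and 0.58 for Myl1, both within 2-fold.

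The same share was computed for other slow and fast pairs of the sarcomere and its calcium store. Slow troponin I, Tnni1, made up 0.722% and 4.59% of Tnni1 and Tnni2. Slow troponin C, Tnnc1, made up 0.310% and 2.12% of Tnnc1 and Tnnc2, and slow troponin T, Tnnt1, 1.80% and 7.13% of Tnnt1 and Tnnt3. The slow calcium pump Atp2a2 made up 1.14% and 4.90% of Atp2a2 and Atp2a1, and the calsequestrin Casq2 1.37% and 3.45% of Casq2 and Casq1. All 7 slow shares were larger in the CR library. The Myl2 share differed by the largest factor, 7.83, and the Myl3 and Myl6b share by the smallest, 2.27.

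**Figure D3:**
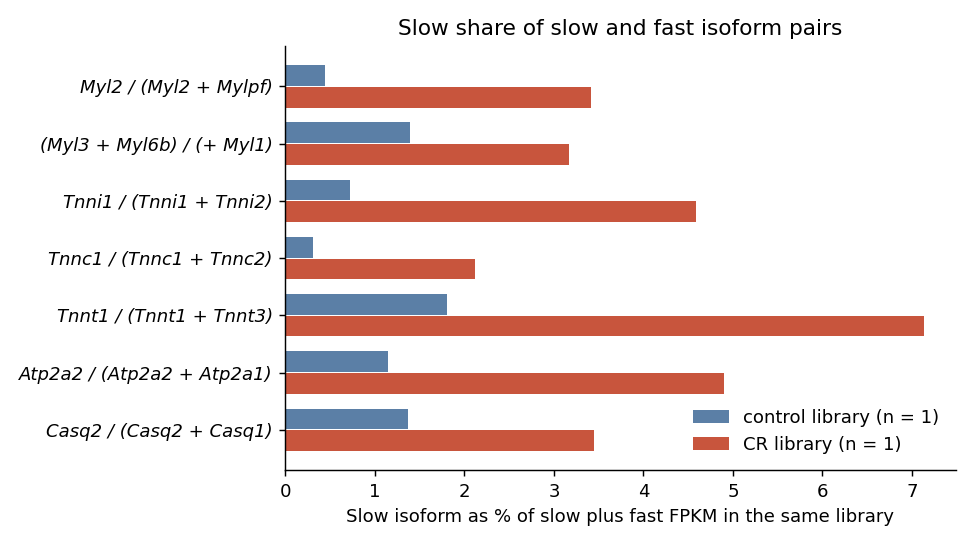
Slow isoform as a percentage of slow plus fast FPKM within each library, for the light chain pairs and 5 other pairs (bars, 1 library each). The slow share is larger in the CR library in each pair, from 0.436% to 3.41% for Myl2 and from 1.39% to 3.16% for Myl3 with Myl6b.

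The fast heavy chains could not be set beside Myh7. Myh2, and the single locus that merges Myh1, Myh3, Myh4 and Myh8 (chr11:66891802-67122135), were listed at 0 in both libraries, although these are the main heavy chains of fast fibres. The giant muscle genes Ttn and Neb were listed at 0 as well, so such a 0 may be a failed estimate, and no share of slow heavy chain is given. Myh13, the heavy chain of eye and larynx muscles, lies next to them and was listed at 50484 and 37639 FPKM. Of the 76-base windows of its coding sequence, 13.7% are found with up to 2 mismatches in another of 8 heavy chains, so its value is uncertain.

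Reads of 76 bases can fit more than 1 heavy chain, and the coding sequences of GENCODE's principal transcripts were compared to measure this. Over the aligned bases Myh7 and Myh6 were 91.7% identical. Of 5733 windows of 76 bases in Myh7, 928 (16.2%) occur unchanged in Myh6 and 2291 (40.0%) with up to 2 mismatches. Myh6 stood at 16.5% and 22.4% of Myh7, and its level is uncertain to the extent that reads were split between them. The part of shared reads in the Myh6 value was not tested.

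Myh7 shared far less with the fast heavy chains. It was 77.6% identical to Myh1, 78.0% to Myh2 and 77.9% to Myh4, with no window in common with Myh1 or Myh2 and 12 (0.209%) in common with Myh4 at up to 2 mismatches. With Myh7b, at 73.1% identity, it shared 12 windows at up to 2 mismatches and none unchanged. By contrast 12.9% of the windows of Myh1 occur unchanged in Myh2. Each light chain was also compared with its relatives. Myl2 was 71.5% identical to Mylpf, Myl3 was 73.3% identical to Myl1 and 69.9% to Myl6b, and Myl6b was 80.3% identical to Myl6, and 0 windows were shared in any of these pairs at up to 2 mismatches.

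**Figure D4:**
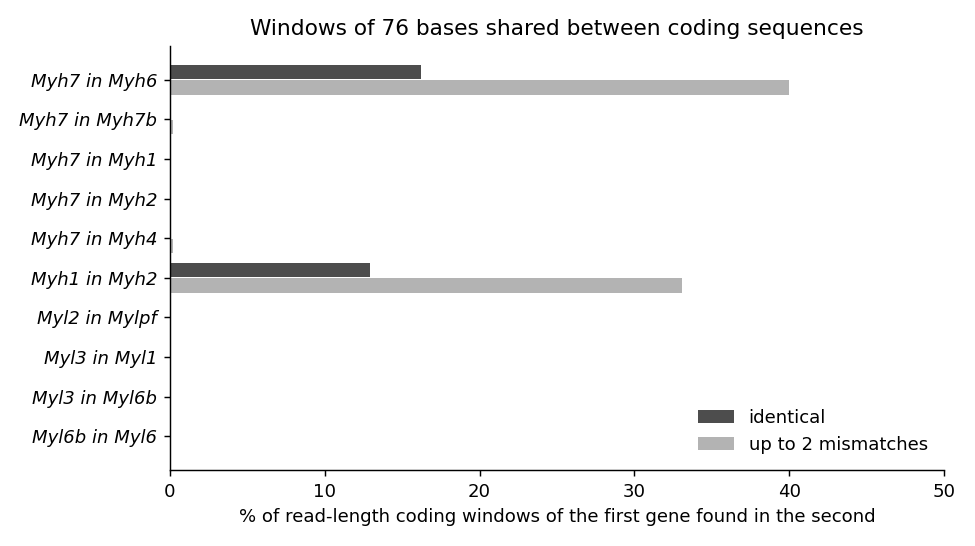
Percentage of 76-base windows in the coding sequence of the first gene that occur in the second, unchanged (dark) or with up to 2 mismatches (light). Myh7 shares 16.2% and 40.0% with Myh6, at most 0.209% with Myh7b, Myh1, Myh2 and Myh4, and the light chain pairs share 0%.

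Other loci of the table lie on top of the members. D830015G02Rik, now named Mhrt or Myheart in RefSeq, is a long non-coding RNA antisense to Myh7 known from the heart. Its locus (chr14:55587624-55593186, plus strand) overlaps the 3′ end of the Myh7 locus by 3666 bases and stood at 707 and 6036 FPKM, a log2 ratio of 3.09. It equalled 7.90% of Myh7 in the control and 7.36% in the CR library. A further 4 unnamed loci of 151 to 215 bases lie inside Myh7 on the opposite strand, between 1717 and 5831 bases from its 5′ end, with log2 ratios of 2.80 to 6.05. The highest of these went with the lowest level, 8.31 and 615 FPKM.

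Myl3 likewise has 4 unnamed loci of 66 to 376 bases within it on the opposite strand. One was listed at 0 in both libraries, and the other 3 had log2 ratios of 1.54 to 2.58, around the 1.71 of Myl3. The most abundant stood at 784 and 2846 FPKM, or 88.0% and 97.8% of Myl3 itself. The kit named for these libraries does not keep strand, and reads of a gene and of a locus opposite it cannot be told apart, and none of these loci is an independent measurement. Ccdc63, 1200 bases from Myl2, was listed at 0 and 143 FPKM. Myl6, the essential light chain of non-muscle myosin, lies 169 bases from Myl6b on the same strand and stood at 1462 and 2299 FPKM, a log2 ratio of 0.65. Smarcc2, 3820 bases from Myl6b, stood at 226 and 202 FPKM. Trpc4ap, which overlaps the end of Myh7b by 31 bases, stood at 875 and 672 FPKM, and Myl6, Smarcc2 and Trpc4ap were all within 2-fold.

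Slow sarcomere partners of the 6 chains, a list that also counts the cardiac actin Actc1, numbered 16. Of these, 10 passed 2-fold upwards under CR, 1 passed it downwards and 5 did neither. Over the 10533 genes kept, the background for this list and those below, 8.01% passed 2-fold upwards and 10.7% downwards. The median log2 ratio of the 16 partners was 1.68. The thin filament genes were all higher, 5 of 5, with a median of 3.02. Tnni1 had a log2 ratio of 3.74, Tnnc1 of 3.69, the slow tropomyosin Tpm3 of 3.02, Tnnt1 of 2.79 and the cardiac actin Actc1 of 2.38. Tnni1 and Tnnc1 lay within the 3.19 to 3.96 of Myl2, Myh6 and Myh7, and Tpm3, Tnnt1 and Actc1 lay between that range and the 1.71 to 2.10 of the other members.

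The thick filament and Z-disc list was divided. Csrp3, a Z-disc LIM protein, stood at 824 and 3309 FPKM, a fold of 4.01, Myoz2, the calsarcin of slow fibres and heart, at 824 and 2993 FPKM (log2 ratio 1.86), and Pdlim1 at 627 and 1262 FPKM (1.01). The slow myosin-binding protein Mybpc1, which sits on the thick filament beside Myh7, stood at 7872 and 6743 FPKM, a log2 ratio of -0.22. It equalled 87.9% of Myh7 in the control and 8.23% in the CR library. Myom3, an M-band protein, had a log2 ratio of -0.10, Myot of 0.03 and the stretch-responsive Ankrd2 of 0.62. Among calcium handling genes, Atp2a2 (1116 and 4370.0 FPKM) and Casq2 (189 and 535 FPKM) were past 2-fold. Pln, phospholamban, stood at 30.0 and 33.1 FPKM, and Sln, sarcolipin, was lower, with a log2 ratio of -1.96.

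Fast sarcomere partners lay closer together, with a median log2 ratio of 0.36 over 11 genes, 1 at least 2-fold higher and 0 at least 2-fold lower. Tnni2 stood at 1.02 on the log2 ratio scale, Tnnc2 at 0.89 and Tnnt3 at 0.73. Other myosin light chains and their kinases had 1 of 8 past 2-fold, Myl10 (52.9 and 194 FPKM, log2 ratio 1.85). Mylk2, the kinase that phosphorylates the regulatory light chain of skeletal muscle, stood at 4945 and 2722 FPKM (-0.86), the phosphatase subunit Ppp1r12a had a log2 ratio of -0.81, and Mylk4 stood at 6889 and 5965 FPKM. Of the smooth and non-muscle heavy chains, Myh11 of smooth muscle was higher (171 and 463 FPKM), Myh14 was lower (1181 and 398), and Myh10 (-0.53) and Myh9 (-0.23) lay within 2-fold.

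Regulators of fibre type, which act on the genes above in background knowledge, stayed under 2-fold in 26 of 29 cases, and their median log2 ratio was -0.12. Hdac4, a repressor of Mef2, was lower at 470 and 102 FPKM (-2.19), as was Vgll2, a TEAD cofactor, at 637 and 301 (-1.08), and Ppara was higher at 88.5 and 185 (1.06). Mef2c was the most abundant, at 2394 and 2197 FPKM. Tead1, which binds MCAT, stood at 1196 and 1037 FPKM, and Sox6, a repressor of slow genes, at 537 and 555 FPKM.

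**Figure D5:**
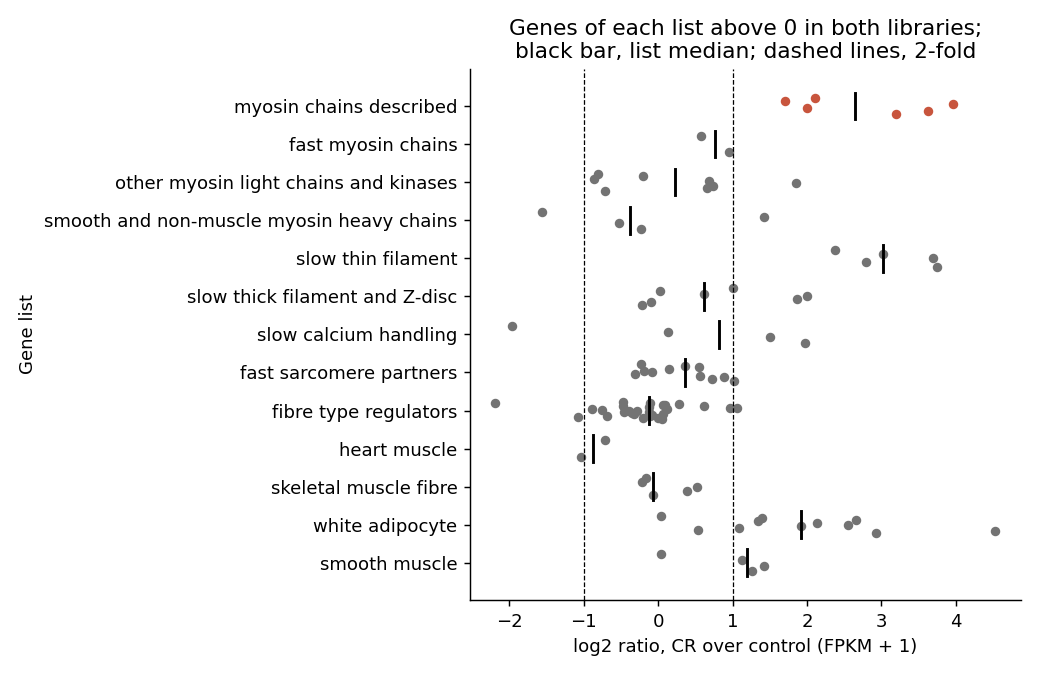
Log2 ratio of CR over control for each gene above 0 in both libraries, by list, with the list median as a black bar and 2-fold as dashed lines. The 6 myosin chains (red) have a median of 2.65 and the slow thin filament list, which counts cardiac actin Actc1, 3.02, while fibre type regulators centre at -0.12.

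By likeness of ratio among those whose mean reached 300 FPKM, the 5 genes nearest to Myh7 outside the 6 were Fabp5 (log2 ratio 3.17), D830015G02Rik (3.09), Acaca (3.31), Tpm3 (3.02) and Ostn (2.99). Fabp5 binds fatty acids and stood at 104 and 948 FPKM, Acaca, which commits acetyl-CoA to fatty acid synthesis, at 364 and 3626, and Ostn, the muscle-secreted peptide osteocrin, at 235 and 1882. With 1 library per group the likeness rests on a single ratio. D830015G02Rik overlaps Myh7 on the opposite strand, and the kit does not keep strand, so its ratio is not independent of that of Myh7.

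Markers of other cell types were read beside these values. Skeletal muscle fibre markers summed to 522225 and 533246 FPKM, and the 5 with a value were within 2-fold, so the labelled tissue carried its markers in both libraries. Among heart markers, Tnnt2, cardiac troponin T, stood at 139 and 67.1 FPKM (log2 ratio -1.04), past 2-fold downwards. Myl4, the atrial light chain, stood at 184 and 112 FPKM, lower but within 2-fold. Of the 15 heart markers, 12 matched no locus by symbol and so have no value. White adipocyte markers moved with the myosin chains, with 10 of 12 at least 2-fold higher and a sum of 7006 and 22736 FPKM. Adipoq stood at 153 and 1178 FPKM, Retn at 48.6 and 1148 and Fabp4 at 2948 and 12924, and Adrb3 was listed at 0 in the control library. Smooth muscle markers were higher in 3 of 4 (sum 1121 and 2145 FPKM), brown adipocyte markers in 6 of 7, of which 3 were listed at 0 in the control library, endothelial in 2 of 7, fibroblast in 3 of 7, macrophage in 1 of 4 and red blood cell in 1 of 3 (sum 18703 and 51219.7 FPKM). Most of the red blood cell sum was Hba-a1, at 15925 and 48110 FPKM, and Hbb-b2 stood at 2514 and 2598 FPKM. The beta-globin gene Beta-s was not on the list and so is not in that count or sum. It stood at 7949 and 37468 FPKM, a log2 ratio of 2.24. Tendon markers were lower in 3 of 5, nerve and Schwann cell markers were higher in 1 and lower in 2 of 7, and spindle markers Etv4 and Etv5 lay within 2-fold. The part of these cell types in the myosin values was not tested.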

How the data were processed

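The authors deposited 1 table of values labelled FPKM per locus for the 2 libraries, and their absolute scale is not known. Per the submitters' processing notes, TopHat 1.2.0, Cufflinks, Cuffdiff and build mm9 were used; the role of each tool, options, annotation and any pooling of mice are not stated there. The lowest deposited value is 1, an offset inferred from the digits of the values, and 1 was subtracted. Loci with a single symbol were summed by symbol (10543 genes; 234 loci that merge symbols were left out). The log2 ratio used a pseudocount of 1 FPKM, a mean of at least 1 FPKM (10533 genes) and no further scaling, and 2-fold was the limit for counting a gene as higher or lower. Depth is unknown, so no interval is given. The ratio script was tested on simulated data without noise, which checks its arithmetic only.

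Members and lists were chosen with earlier results of these data known. The rule for named genes was the 6 members, every gene of the fast myosin, slow and heart lists, the 3 largest ratios and the most abundant gene of other lists, and the 5 genes nearest to Myh7; of the marker lists of other cell types mainly counts are given. One gene of the heart list is not reported here. Tead1, Sox6, Myh9, Beta-s and loci near the members were named outside it after their values were seen. Sequences and motifs used GRCm38 tables from RefSeq and GENCODE M21, matched by symbol (6 of 6 members), and no coordinates were converted. Python 3.11.15, pandas 2.3.3, numpy 2.4.6, Biopython 1.88 (global alignment) and matplotlib 3.10.9 were used.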

Additional observations from a re-analysis of the deposited data

How the results depend on the processing

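In 9 alternatives (pseudocounts of 0.1 and 5 FPKM, no filter, filters at a mean of 100 and 300 FPKM, centring on the median gene, equal sums without the 50 most abundant genes, the largest locus of a symbol, and the offset kept), each of the 6 myosin ratios stayed above 2-fold wherever the gene passed the filter. The log2 ratio ranged from 3.12 to 3.22 for Myh7, 3.56 to 3.66 for Myh6, 1.88 to 2.03 for Myh7b, 3.88 to 3.99 for Myl2, 1.63 to 1.74 for Myl3 and 2.03 to 2.13 for Myl6b. Filters at a mean of 100 and 300 FPKM removed Myh7b and left 5 members. The count of all genes at least 2-fold higher, 844, became 390 of 7886 at the filter of 100 FPKM and 179 of 4170 at 300 FPKM. Fewer genes were kept, and the share of kept genes was also smaller, 4.95% and 4.29% in place of 8.01%; the cause was not tested. Genes at least 2-fold lower numbered 1124, 417 and 122, so higher genes made up 42.9%, 48.3% and 59.5% of those past 2-fold, and the balance turned at 300 FPKM. The count of slow sarcomere partners at least 2-fold higher was 9 in place of 10 when sums were equalised, and 10 in the other alternatives. Values recomputed numbered 71, of which 69 stayed within the limits used (the same side of 2-fold, or a count or share within 1.5 times). No paired analysis was possible because each group has 1 library. Leaving out a library was not possible for the same reason. Unknown depth limits most the low genes, here Myh7b at 32.1 FPKM in the control library.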
